A study of Homo sapiens with 9 samples.

Results

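Cisplatin recovery was examined in A375 cells by comparing 3 RNA-seq libraries of cells that had been treated with cisplatin with 3 libraries of cells kept in normal culture. These 6 libraries, chosen by the treatment named in their labels, belong to a series of 9. A375 is an established human melanoma line, and the labels give every sample the genotype BRAFV600E, an activating mutation of the kinase BRAF that drives the ERK pathway. Control cells received no drug. Cisplatin cells received 2 µM cisplatin for 1 day, were put back into drug-free culture and were collected on day 7, so their RNA describes the state some days after the exposure and not the acute damage response. The other 3 libraries came from cells that had received 10 µM of the BRAF inhibitor vemurafenib for 3 days and were also collected drug-free on day 7. They served for the estimate of the spread between replicates and, at the end, as a second drug-treated population for comparison. Dose, exposure time and drug-free time differed between the drugs, and the collection day of the control cells is not in the labels. A single cell line was studied.

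Cisplatin binds purine bases and crosslinks neighbouring guanines, which blocks replication and transcription. Cells that cannot repair such lesions in time activate p53, stop dividing and either die or persist in a lasting arrest, often called therapy-induced senescence. Cells in this state are known for enlarged lysosomes, altered chromatin, changed metabolism and secretion of cytokines, proteases and growth factors, and the mix of these features depends on the cell type and the damage. The p53 and proliferation genes were the frame of the comparison. Of 31 tested members of the p53 target list used here 25 were higher and none lower. All 40 tested mitosis genes were lower. The sections that follow concern mainly the other genes. The chromatin regulator list and the purine, pyrimidine and folate list each share 2 genes with the mitosis or DNA replication lists.

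Depth ranged from 14481020 to 16038475 estimated counts per library over the 6 libraries, and 13989 of 18430 genes in the table had enough counts to be tested. The 3 groups separated on the first principal components (46.1% and 40.1% of the variance). The third (5.8%) set vemurafenib replicate 1 apart from the other two vemurafenib libraries, and without it in the fit the test between cisplatin and control made more calls, as given below. Markers of the melanoma line were present: SOX10, the neural crest and melanocyte lineage factor, was at 1060.3 ± 74.4 and 836 ± 50.2 CPM (counts scaled to a common library size) in control and cisplatin cells. The pigment genes MLANA, TYR and DCT were each under 1 CPM on average in both groups. Among 6 blood cell markers in the table HBB had no count, PTPRC had 0 counts in controls and 14 after cisplatin and CD3E 0 and 4, while LYZ and CD68 were higher after cisplatin. Summed blood markers were at 87.4 to 124 CPM in controls and 239 to 288 CPM after cisplatin. Of 5 tested endothelial markers none changed (8.93 to 10.7 and 7.13 to 8.38 CPM). Of 7 tested fibroblast markers 2 rose and 2 fell (29.0 to 33.4 and 19.9 to 34.4 CPM), and of 4 tested epithelial markers 1 rose and 3 fell (307 to 350 and 235 to 255 CPM). In RNA from a whole culture, fewer cells of a kind and less RNA per cell cannot be told apart. Whether replicates were grown separately is not in the labels. The p-values therefore rest on the spread of these libraries, part or all of which may be technical.

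Levels below are CPM after TMM scaling, given as mean ± SD of 3 libraries unless single libraries are listed in the order of replicates 1 to 3. Changes are on the log2 scale with their standard error (SE). A gene is called changed where edgeR's quasi-likelihood test gave a Benjamini-Hochberg adjusted p under 0.05 over all 13989 genes. By this rule 6471 genes changed (46.3%), 3181 of them higher after cisplatin (22.7%) and 3290 lower (23.5%), with a median change over all tested genes of 0.00. Without vemurafenib replicate 1 the counts were 4220 and 4422. Changes of at least 1 on the log2 scale numbered 1116 upwards (7.98%) and 1301 downwards (9.30%). The 3 libraries of one group lay wholly above or below those of the other for 67.0% of tested genes. The counts of each list are to be read against these shares. The bar chart of gene lists shows where lists stood apart from them.

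**Figure D1:**
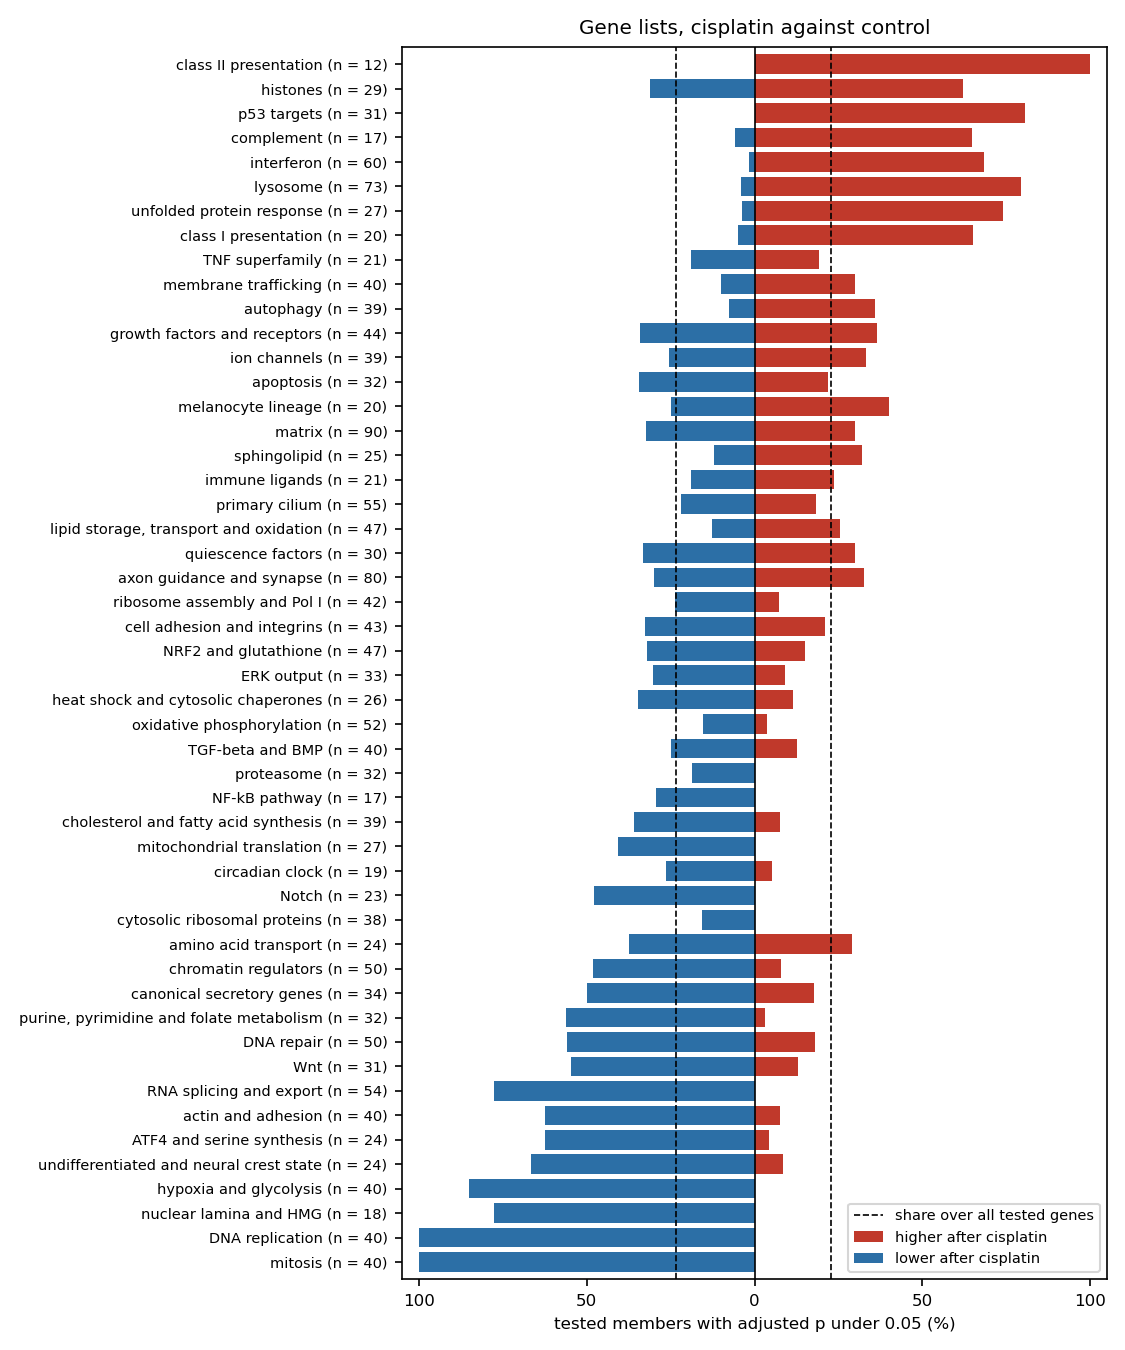
Share of tested members of each gene list that were higher (right, red) or lower (left, blue) after cisplatin than in controls, in percent of the tested members (n beside each name), ordered by the list's median change. Dashed lines mark the shares over all 13989 tested genes (22.7% higher and 23.5% lower). Class II presentation, lysosome and unfolded protein response genes lie far to the right of the line, and splicing, hypoxia and glycolysis genes far to the left.

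Genes of the lysosome, the acidic compartment in which cells digest proteins, lipids and sugar chains, were higher in cisplatin cells. Of 73 tested members 58 rose and 3 fell, with a median log2 change of 0.72. The list took up 0.689% to 0.722% of all TPM (the deposited values scaled for gene length) in control libraries and 1.18% to 1.39% in cisplatin libraries. Among enzymes that split sugar chains and sulfate esters 17 of 21 rose (median 0.91). IDUA, which degrades glycosaminoglycans and is deficient in Hurler syndrome, was at 32.4, 30.4 and 31.5 CPM in control libraries and 110.3, 111 and 101 CPM in cisplatin libraries. The groups did not overlap, and the change was 1.77 (SE 0.18, adjusted p = 1.20e-05). GAA, the acid glucosidase that breaks down glycogen, rose from 117 ± 10.6 to 337 ± 36 CPM, and ARSA, the arylsulfatase that removes sulfate from sulfatide lipids, rose by 1.45 (SE 0.12). GLB1, whose product is the beta-galactosidase stained as a marker of senescence, rose from 77.9 ± 4.39 to 129 ± 10.7 CPM (log2 change 0.73, SE 0.10), a smaller change than the median of its group. GUSB and the protease CTSS were among the members that fell (named after their values were seen).

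All 8 tested lipid hydrolases rose (median 0.79). ASAH1, the acid ceramidase, rose from 26.6 ± 1.06 to 66.6 ± 6.84 CPM, and PSAP, the precursor of the saposins that present lipids to these enzymes, from 722 ± 37.5 to 1548 ± 74.6 CPM. Of 14 proteases 12 rose: CTSO by 2.53, the collagen-degrading cathepsin CTSK by 1.84, CTSF by 1.42 and the tripeptidyl peptidase TPP1 by 1.26. Membrane proteins of the lysosome had 9 rises among 15 and a median of 0.38. LAMP2 rose from 128 ± 3.12 to 202 ± 12.8 CPM. The proton pump that acidifies the compartment had 12 rises among 15 subunits and accessory genes. Its accessory proteins ATP6AP2 and ATP6AP1 rose by 1.19 and 0.91, and the catalytic subunit ATP6V1A by 0.9. CD68, which also served as a blood marker above, is a lysosomal membrane protein.

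Of 39 tested autophagy genes, which build the vesicles that feed the lysosome, 14 rose and 3 fell (median 0.16). MAP1LC3B, the vesicle coat protein LC3, rose from 120.1 ± 10.7 to 208 ± 12.3 CPM, and the initiation factor BECN1 rose by 0.74 (SE 0.10). DEPTOR, an inhibitor of the growth kinase mTOR, rose by 1.43 (SE 0.19). The mitophagy receptors BNIP3 and BNIP3L, which are also hypoxia targets, fell by 2.73 and 0.95. Of the transcription factors of the family that controls lysosome genes, TFEB was lower, at 4.71 ± 0.832 in controls and 2.9 ± 0.196 CPM after cisplatin (log2 change -0.7, adjusted p = 0.0337). The call did not hold when control replicate 1 or 2, or any 1 of the cisplatin replicates, was left out (adjusted p = 0.066 to 0.126). TFEC rose from 0.174 ± 0.136 to 4.09 ± 2.28 CPM (log2 change 4.5, SE 0.60), and MITF, of the same family, was at 35.8 ± 1.54 and 37.2 ± 3.89 CPM (adjusted p = 0.804).

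The promoters of the lysosome list were searched for the 8 letters CACGTGAC or their reverse complement GTCACGTG on both strands. These letters are the core of the element that TFEB-family factors are known to bind. Promoter windows of 300 bases (from 250 before to 50 after the start) came from RefSeq on GRCh38.p14, the first listed for each gene. They were matched by gene identifier for 48 of the 73 tested members. The letters stood in 10 of the 48 (20.8%), against 4.22% of the 11320 tested genes that had a window. With any listed window of a gene the shares were 22.9% and 5.09%. The proton pump genes had them in 3 of 10 windows and the autophagy genes in 3 of 32. All tested members with a window were searched, whether or not they changed, so the shares describe the lists and not the response to cisplatin. A match is a description of the letters and shows no binding. Stretches that hold the matches, in capitals, are shown 5′ to 3′ for a glycosidase, a protease and a membrane protein that rose.
GAA (chr17:80101473-80101587, plus strand): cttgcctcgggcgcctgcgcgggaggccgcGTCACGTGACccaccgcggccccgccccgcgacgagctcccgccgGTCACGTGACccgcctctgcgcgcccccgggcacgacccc
CTSA (chr20:45891261-45891347, plus strand): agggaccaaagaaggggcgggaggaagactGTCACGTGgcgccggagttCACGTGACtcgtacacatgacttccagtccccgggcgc
LAMP1 (chr13:113297015-113297275, plus strand): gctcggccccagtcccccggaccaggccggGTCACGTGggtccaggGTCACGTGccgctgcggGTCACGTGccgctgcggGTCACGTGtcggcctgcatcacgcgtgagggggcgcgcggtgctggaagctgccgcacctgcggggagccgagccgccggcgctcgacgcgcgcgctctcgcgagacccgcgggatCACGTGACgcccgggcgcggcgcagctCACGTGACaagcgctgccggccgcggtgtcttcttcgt
In GAA the letters appear on both strands at 2 places, forming the palindrome GTCACGTGAC. CTSA encodes cathepsin A, which protects other lysosomal enzymes, and LAMP1 an abundant glycoprotein of the lysosomal membrane, with 6 matches in its window. CTSA changed by 1.17 (SE 0.11) and LAMP1 by 0.53 (SE 0.11).

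**Figure D2:**
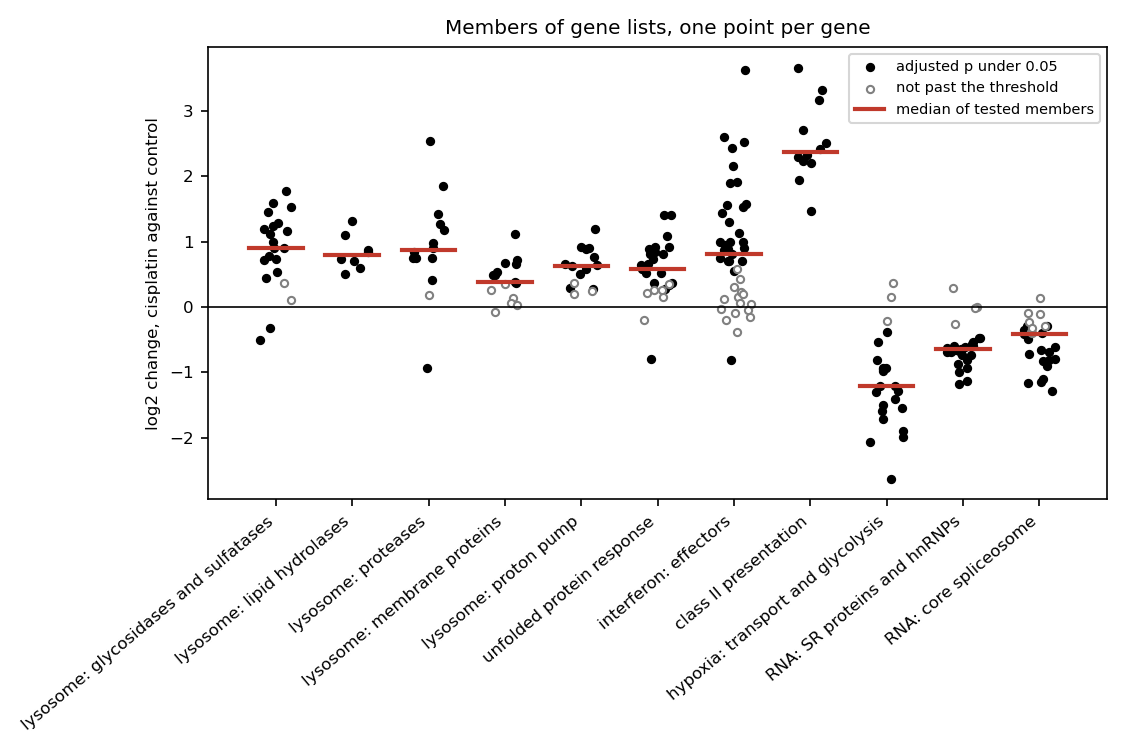
Log2 change of each tested member of selected lists, cisplatin against control; each point is 1 gene, filled where the adjusted p was under 0.05 and open otherwise, and the red bar is the median of tested members. Medians lie between 0.38 and 0.91 for the lysosome groups, at 2.37 for class II presentation and at -1.21 for transport and glycolysis.

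Genes of the interferon response, an antiviral programme that cells also switch on when they sense their own nucleic acids, were higher. Of 60 tested 41 rose and 1 fell, with a median of 0.78. Among sensors and adaptors 6 of 8 rose. RIGI, a sensor of viral-like RNA, rose from 10.3 ± 2.12 to 23.3 ± 4.35 CPM, DHX58, of the same family, by 1.23, and AIM2, a sensor of cytosolic DNA, by 1.29 (SE 0.12). The sensor CGAS had a single count in each group. STING1, the adaptor downstream of that sensor, was at 41.6, 38.2 and 36 CPM in controls and 29.1, 29.9 and 26.2 CPM after cisplatin. Its difference did not pass the threshold (log2 change -0.44, adjusted p = 0.076), but did without vemurafenib replicate 1 (adjusted p = 0.00402) or 3 (0.0271) and with the 2 compared groups alone (0.00125). Of the transcription factors 8 of 9 rose. STAT2, which carries the type I interferon signal to the nucleus, rose by 1.41 (SE 0.11) and IRF9 by 1.33 (SE 0.15). The effectors had 27 rises among 43. OAS2, which makes the activator of an antiviral RNase, rose from 8.32 ± 1.07 to 31 ± 2.94 CPM. OAS3 was the member that fell (-0.81, named after its value was seen).

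The letters TTTC, any 2 bases and TTTC again, or their reverse complement, the core of the interferon-stimulated response element, stood in 26 of the 45 interferon list promoters that matched (57.8%), against 2.92% of tested genes with a window. The share was 9 of 16 for class I presentation and 0 of 10 for class II. Here too members were searched whether or not they changed, and the shares do not depend on the treatment. The stretch of an effector that carries 2 matches is shown for comparison with the lysosome promoters. IFIT3, an RNA-binding antiviral protein, changed by 1.57 (SE 0.15).
IFIT3 (chr10:89327811-89327914, plus strand): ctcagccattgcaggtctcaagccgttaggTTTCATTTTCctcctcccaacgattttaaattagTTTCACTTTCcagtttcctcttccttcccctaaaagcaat

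Antigen presentation genes were higher as well. All 6 tested genes of class I heavy chains and B2M rose (median 1.03), HLA-F from 7.97 ± 0.753 to 25.9 ± 4.12 CPM and HLA-C from 295 ± 25 to 727 ± 58.8 CPM. Peptide supply and loading genes had 7 rises and 1 fall among 14. TAPBPL, a peptide editor, rose by 1.24 and the transporter TAP1 by 0.69, while the immunoproteasome subunits PSMB8 and PSMB9 did not pass (log2 changes 0.07 and -0.32, named after their values were seen). Class II genes, which present antigen to helper T cells and are expressed by some melanomas, all rose (12 of 12, median 2.37). CD74, the chain that escorts class II molecules, was at 2129, 2236 and 2072 CPM in control libraries and 5233, 5951 and 6517 CPM in cisplatin libraries, and HLA-DMB, which loads peptide, rose from 9.47 ± 1.67 to 61.6 ± 15.1 CPM. Together the class II list took up 0.376% to 0.395% of TPM in controls and 1.14% to 1.6% after cisplatin, without overlap. HLA-DQB2 rose from 0.285 ± 0.216 to 25.7 ± 12.1 CPM and was among the 12 largest rises that the naming rule took. HLA genes are close copies, and how their reads were divided among them is uncertain. The blood markers LYZ and CD68 rose beside the class II genes, PTPRC, HBB and CD3E were at or near 0 in every library, and the part of other cells in this result was not tested.

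Complement inhibitors, proteins that shield cells from complement attack, were higher in 6 of 8 cases (median 1.81). CD55, at chr1:207321678-207360966 of GRCh38, encodes the decay-accelerating factor of the cell surface. It was at 497, 451 and 494 CPM in controls and at 3465, 3375 and 2608 CPM after cisplatin. Every cisplatin library was far above every control library, with a change of 2.71 (SE 0.24, adjusted p = 4.67e-06). The soluble regulator CFI rose by 2.07, and the chaperone-like CLU rose from 7.26 ± 0.884 to 49.4 ± 14.2 CPM. Of 9 complement components 5 rose, C1S by 1.54 and C1R by 0.94, and CFD, named after its value was seen, fell (-1.47), a call that did not hold without control replicate 1 or 2 or cisplatin replicate 1 or 3 (adjusted p = 0.0564 to 0.0938). Ligands seen by T and natural killer cells were divided, with 5 rises and 4 falls among 21 (8 rises without vemurafenib replicate 1). CEACAM1, an inhibitory adhesion molecule, rose from 5.8 ± 0.61 to 43.1 ± 3.6 CPM, while NT5E, the surface enzyme that makes adenosine, fell from 296 ± 29.6 to 104 ± 24.7 CPM.

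The cytokines, chemokines and proteases usually measured as the senescence secretome did not rise as a group. Of 14 tested cytokines and chemokines 11 fell and 1 rose, IL24 (2.21), named after its value was seen. LIF, a cytokine of the interleukin-6 family, fell from 285 ± 24.3 to 94 ± 16.6 CPM. The NF-kB subunits and regulators had 5 falls and no rise among 17 (8 falls without vemurafenib replicate 1), beside falls in 23.5% of all tested genes. Their median change was -0.19. NFKB2 fell by 1.1 (SE 0.14), and NFKBIZ, a co-activator of cytokine genes, by 1.04 (SE 0.20). Proteases and their inhibitors were divided, with 4 rises and 5 falls among 14. The protease MMP1 fell by 1.5 and the urokinase receptor PLAUR by 0.99. TIMP1, at chrX:47582436-47586789, which inhibits matrix metalloproteases, moved the other way. It was at 1593, 1163 and 1252 CPM in controls and at 9972, 9920.3 and 7536 CPM after cisplatin. The groups did not overlap, the change was 2.77 (SE 0.20, adjusted p = 9.09e-07), and per length TIMP1 went from 3179 ± 501 to 23150.2 ± 2905 TPM, the largest increase in TPM of any named gene. It took up 0.274% to 0.373% of all TPM in controls and 1.98% to 2.52% after cisplatin.

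The 12 largest rises by fold change that the naming rule took included F5, TCN1 and MUC7. F5, at chr1:169511951-169586481, encodes coagulation factor V. It was at 0.326, 0.133 and 0.257 CPM in control libraries and 38.4, 35.2 and 56.8 CPM in cisplatin libraries, a change of 7.46 (SE 0.30, adjusted p = 7.06e-09). TCN1, a vitamin B12 binding protein, was at 2.93, 7.03 and 7.45 CPM in controls and 265, 296 and 688 CPM after cisplatin. MUC7, a small salivary mucin, rose from 0.714 ± 0.467 to 74.2 ± 3.43 CPM. The naming rule took only genes whose groups did not overlap, so the lack of overlap in these genes follows from the choice. CST1 and CST2, neighbouring inhibitors of cysteine proteases, also rose: CST1 had 1 count over the controls and 173 over the cisplatin libraries (ratio 180, 95% counting interval 31.9 to 7150), and CST2 rose from 0.152 ± 0.0376 to 8.52 ± 4.51 CPM. The cystatin genes are close copies, and reads could be split between them. The neuropeptide precursors PDYN and TAC1 rose from 0.087 ± 0.0376 to 10.8 ± 2.71 and from 0.497 ± 0.292 to 17.4 ± 2.07 CPM, the metalloprotease PAPPA2 by 5.0 and the chemokine CXCL14 by 4.72. SLCO2B1, an uptake transporter for organic anions, had 3 counts over the controls and 281 after cisplatin (ratio 97.5, 33.0 to 475). CLCA2, a known p53 target that encodes a membrane protein of the calcium-activated chloride channel regulator family, rose by 5.91 (SE 0.62). Fitted changes of genes with so few counts in controls give no firm order.

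PCSK1, a convertase that activates prohormones in secretory granules, was at 39.8, 49.3 and 44.2 CPM in controls and 436, 471 and 538 CPM after cisplatin (log2 change 3.44, SE 0.31, adjusted p = 4.68e-06). SOD3, the extracellular superoxide dismutase, was at 26.7, 25 and 21.1 CPM in controls and 321, 257 and 186 CPM after cisplatin. Both genes were higher in each cisplatin library than in any control, and these genes and A2M were named after their values were seen. The protease inhibitors A2M and SERPINA3 rose by 2.7 and 1.15. SERPINE2 rose by 0.67 (SE 0.19), a call that was lost without control replicate 1 (log2 change 0.60, adjusted p = 0.054). The calcium-binding proteins S100A1 and S100B, both found in melanoma cells, rose from 178 ± 20 to 674 ± 81 and from 15.1 ± 1.2 to 136 ± 25.5 CPM. MTRNR2L2 and MTRNR2L8 were also among the largest rises in TPM, but they are nuclear copies of mitochondrial ribosomal RNA sequence and their reads may come from other loci.

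**Figure D3:**
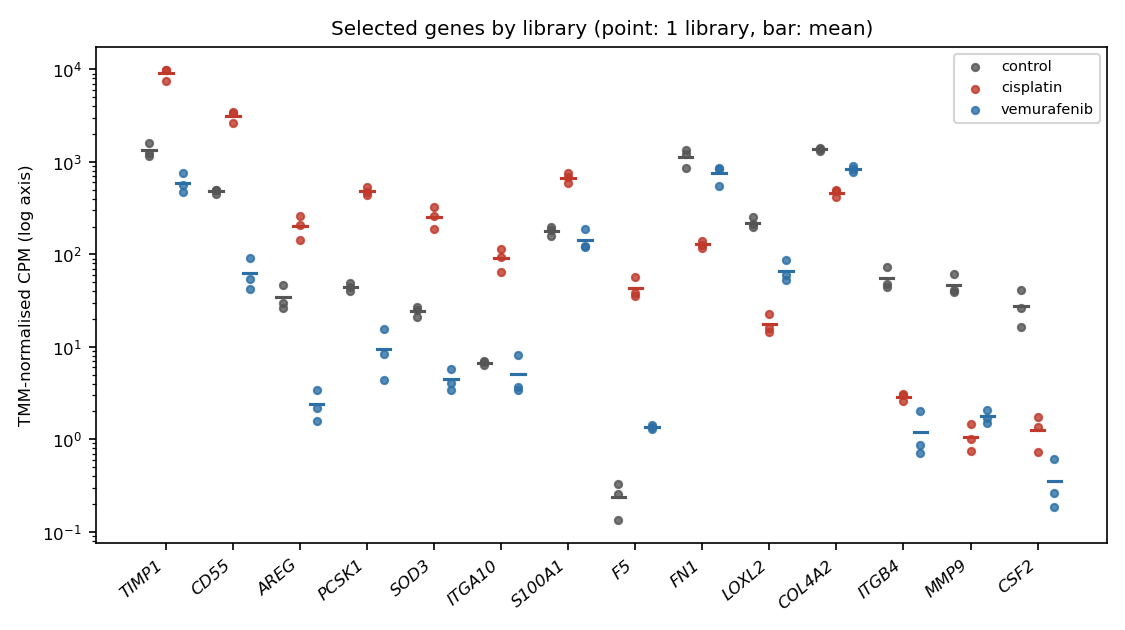
CPM of selected genes in every library on a log axis; grey is control, red cisplatin and blue vemurafenib, each point is 1 library and each bar the mean of 3. TIMP1, CD55, AREG, PCSK1, SOD3, ITGA10, S100A1 and F5 are higher in each cisplatin library than in any control or vemurafenib library, and FN1, LOXL2, COL4A2, ITGB4, MMP9 and CSF2 are lower after cisplatin than in controls.

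Growth factors and their receptors changed in both directions. Of 23 ligands 9 rose and 6 fell, and of 21 receptors 7 rose and 9 fell. AREG, a ligand of the epidermal growth factor receptor, was at 47.1, 26.1 and 29.8 CPM in controls and 259.5, 208 and 144 CPM after cisplatin, with no overlap (log2 change 2.57, SE 0.27). Its receptor EGFR fell from 29.5 ± 5.66 to 7.1 ± 1.06 CPM. MERTK, a receptor for apoptotic cell debris, rose from 1.46 ± 0.597 to 12.9 ± 0.395 CPM, while FGFR3 fell by 2.89 and NGFR by 3.33. VEGFC, a lymphatic growth factor, fell by 2.6. Genes read as ERK output had 3 rises and 10 falls among 33. EGR2, an immediate early factor, rose from 17.7 ± 3.15 to 67.5 ± 25.7 CPM, and the ETS factor ETV4 fell from 330.2 ± 7.98 to 122 ± 5.26 CPM.

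Histone genes split by class. Replication-dependent histones are normally expressed in S phase from clusters of genes whose mRNAs end in a stem-loop without a poly(A) tail. Replacement variants are also made outside S phase, mostly from ordinary polyadenylated mRNAs. Of 46 replication-dependent genes measured, 19 passed the filter on low counts, 18 of these rose and 0 fell (median 2.52, range -0.47 to 3.62). Some passed only through their level after cisplatin and so had to differ. Of the 8 with a mean of at least 1 CPM in controls all 8 rose. H1-2, a linker histone, was at 8.67, 10.9 and 9.88 CPM in controls and 72.5, 96.3 and 112 CPM after cisplatin. The groups lay far apart, with a change of 3.25 (SE 0.19, adjusted p = 1.72e-07). H2AC6 rose from 2.57 ± 0.279 to 20.4 ± 1.51 CPM and H2BC5 from 4.05 ± 0.345 to 26.5 ± 4.73 CPM. H2AC11 was the tested member that did not pass (-0.47, named after its value was seen). The summed level of the tested genes went from 74.6 to 467 CPM. They lay in the cluster of chr6:26055740-27893185 (14 of 15 higher) and in that of chr1:149782689-149886682 (4 of 4 higher). Histone genes of a class are near-identical in sequence, H2AC18 and H2AC19 had the same values in every library, and the labels do not say whether polyadenylated RNA was selected.

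Replacement variants fell in 9 of 10 cases (median -0.79), their summed level going from 1902 to 1132 CPM. H2AZ1, a variant at promoters, was at 176, 134 and 174 CPM in controls and 26.4, 25.8 and 24 CPM after cisplatin. The variant that marks DNA breaks when phosphorylated, H2AX, fell from 117 ± 14.2 to 30.9 ± 2.04 CPM. MACROH2A1 did not pass (-0.07). Chromatin regulators had 24 falls and 4 rises among 50. The histone chaperone subunits ASF1B, CHAF1A and CHAF1B, which deposit histones behind the replication fork, fell by 4.03, 2.96 and 2.58. UHRF1, which guides maintenance DNA methylation, fell from 102 ± 9.58 to 9.46 ± 0.743 CPM, and EZH2, the Polycomb methyltransferase, from 56.9 ± 3.52 to 9.37 ± 0.578 CPM. The members that rose were EZH1, the acetyltransferases KAT2A and KAT2B and the deacetylase HDAC5 (named after their values were seen), with KAT2B at 1.54.

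**Figure D4:**
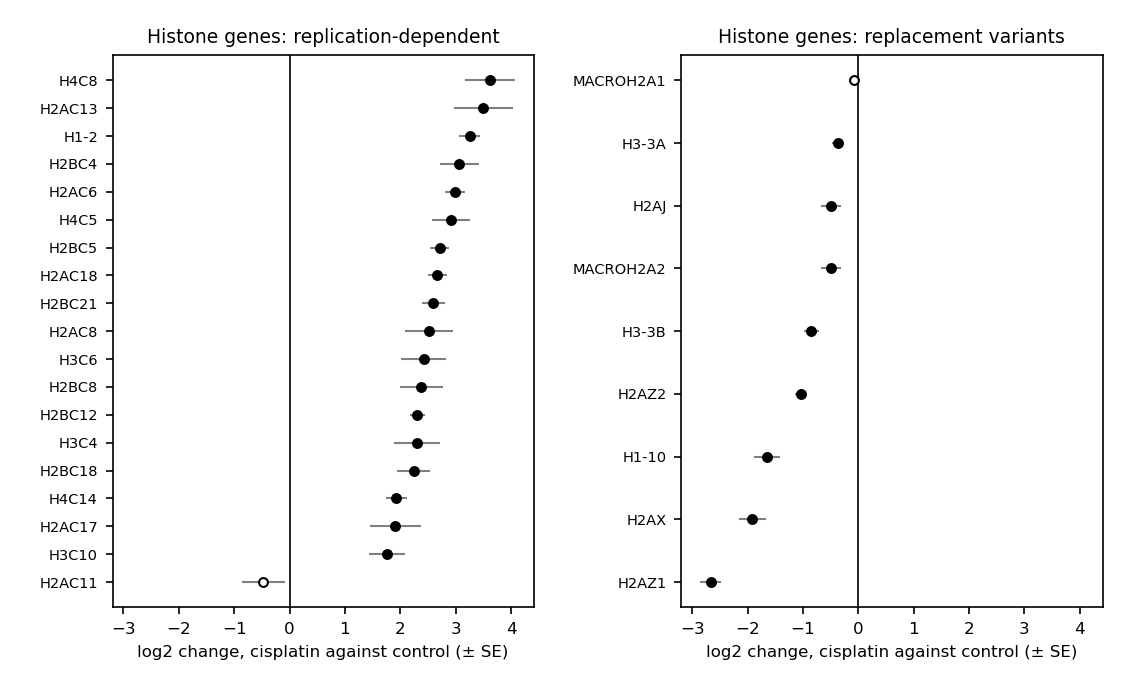
Log2 change of tested histone genes, cisplatin against control, each with its standard error; filled points had an adjusted p under 0.05 and open points did not. On the left, 18 of 19 replication-dependent genes lie above 0; on the right, each plotted replacement variant except MACROH2A1 fell.

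Genes that act in the making of proteins and RNA moved in different directions. The unfolded protein response, which expands the folding capacity of the endoplasmic reticulum, had 20 rises and 1 fall among 27 (median 0.58). DNAJB9, a chaperone of the reticulum, rose from 19.3 ± 2.87 to 51.3 ± 1.12 CPM. EDEM2, which starts the disposal of misfolded glycoproteins, rose by 1.4 (SE 0.12), and the chaperones HYOU1 and CALR by 1.08 and 0.58. EDEM1 was the member that fell (-0.8, named after its value was seen). Genes of the ATF4 branch, which serves amino acid supply, did not follow: 15 of 24 fell and 1 rose, SESN2, which is also a p53 target (1.08). PHGDH, the entry enzyme of serine synthesis, was at 113, 103 and 120.0 CPM in controls and 18.7, 17.8 and 20.2 CPM after cisplatin. The groups did not overlap, with a change of -2.57 (SE 0.15). The amino acid transporters SLC7A5, for leucine, and SLC7A11, for cystine, fell by 1.6 and 1.55.

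Splicing and export factors fell in 42 of 54 cases and rose in none (median -0.61). Of SR proteins and hnRNPs, which choose splice sites, 22 of 26 fell. HNRNPD was at 242, 220.0 and 237 CPM in controls and 113, 97.6 and 96.7 CPM after cisplatin (log2 change -1.18, SE 0.12), and HNRNPA1 fell from 2079 ± 132 to 948 ± 118 CPM. The 3 control values of each gene lay above all 3 cisplatin values. In the core spliceosome 20 of 28 fell (13 without control replicate 3), led by SNRPA (-1.29), a protein of the U1 particle. Among ribosome assembly factors 10 of 42 fell and 3 rose (median -0.05), with falls near the share of 23.5% over all tested genes. FBL, the methyltransferase of ribosomal RNA, fell from 199 ± 10.2 to 72.7 ± 9.54 CPM. Mitochondrial translation genes had 11 falls and no rise among 27, MRPS30 falling by 1.01. Of 38 cytosolic ribosomal protein genes 6 fell and none rose, a count that was 3 without cisplatin replicate 3 and 26 without vemurafenib replicate 1. Purine, pyrimidine and folate enzymes had 18 falls and 1 rise among 32 (10 falls without control replicate 3). The purine synthesis enzyme PAICS fell from 478 ± 41.2 to 169 ± 12.4 CPM.

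Genes of sugar metabolism were lower. Glucose transport and glycolysis had 20 falls and no rise among 23 (median -1.21), and took up 3.65% to 4.0% of TPM in controls but 1.90% to 1.94% after cisplatin. ENO1, the enolase of most tissues, was at 3953, 4152 and 3869.8 CPM in controls and 1366, 1334 and 1276 CPM after cisplatin. Its neuronal form ENO2 fell by 2.63 (SE 0.13), and PDK1, a kinase that holds back pyruvate oxidation in mitochondria, by 2.06 (SE 0.19). GAPDH, often used as a reference gene, fell from 11469 ± 1115 to 6531 ± 429 CPM, and LDHA, which makes lactate, from 2646 ± 117 to 936 ± 61 CPM. Other targets of the hypoxia factor HIF had 14 falls and no rise among 17. CA9, a surface carbonic anhydrase, was at 247, 272 and 184 CPM in controls and 2.15, 2.31 and 2.8 CPM after cisplatin, and NDRG1, a stress-induced cytoplasmic protein, fell by 2.09 (SE 0.17). Oxidative phosphorylation genes had 2 rises and 8 falls among 52. The falls numbered 5 without any 1 control replicate, 4 without cisplatin replicate 2 or 3 and 21 without vemurafenib replicate 1.

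Lipid genes changed in both directions. Cholesterol and fatty acid synthesis had 3 rises and 14 falls among 39. INSIG1, which holds back the sterol-sensing machinery, fell by 0.79 (SE 0.16), and the desaturases SCD and FADS1 fell by 0.98 and 1.18. Sterol export and lipoprotein genes had 8 rises and 2 falls among 18. ABCA1, the cholesterol exporter, rose from 15.1 ± 1.79 to 44.6 ± 3.28 CPM, and APOD, a lipid carrier, from 4.36 ± 0.741 to 25.3 ± 4.94 CPM. PLIN2, which coats lipid droplets, fell by 0.58 (SE 0.14), and LPL, which frees fatty acids from lipoproteins, by 1.89 (SE 0.38). Among sphingolipid genes 8 of 25 rose and 3 fell. SPHK1, the kinase that makes sphingosine-1-phosphate, rose by 1.37, and B4GALNT1, which makes the gangliosides GM2 and GD2, fell by 1.83.

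Targets of NRF2, the factor of the oxidative stress response, had 3 rises and 11 falls among 27. AKR1B1, an aldose reductase, fell from 192 ± 7.9 to 57 ± 5.2 CPM. Antioxidant enzymes had 4 rises and 4 falls among 20. The secreted peroxidase GPX3 rose from 12.4 ± 0.535 to 42.7 ± 7.43 CPM.

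Extracellular matrix genes changed in both directions: of 90 tested genes 27 rose and 29 fell. FN1, fibronectin, was at 1329, 1206 and 854 CPM in controls and 126, 118 and 141 CPM after cisplatin. LOXL2, which crosslinks collagen, was at 212, 251 and 198 CPM in controls and 15.8, 14.4 and 22.4 CPM after cisplatin. Both were lower in each cisplatin library than in any control, with changes of -3.14 (SE 0.21) and -3.65 (SE 0.22). The basement membrane collagen COL4A2 fell by 1.55, COL6A3 by 2.31 and the crosslinking transglutaminase TGM2 by 2.79. COL16A1, a fibril-associated collagen, rose from 39.3 ± 4.7 to 114 ± 12.7 CPM, the matricellular protein SPARC from 3552 ± 122 to 5894 ± 441 CPM and the protease ADAMTS7 from 13.8 ± 0.266 to 65.9 ± 3.57 CPM. The proteoglycan LUM, which is also a fibroblast marker, rose from 3.13 ± 1.31 to 13 ± 6.12 CPM. The fibroblast marker DCN also rose, from 44 counts over the controls to 113 over the cisplatin libraries, while PDGFRA and PDGFRB fell. COL1A2 and THY1 were near 0 in both groups, with 2 and 0 counts in controls and 1 count each after cisplatin.

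Integrins, the receptors for this matrix, had 1 rise and 6 falls among 17. ITGA10, a collagen-binding subunit, was at 6.98, 6.37 and 6.93 CPM in controls and 113, 94 and 64.5 CPM after cisplatin (log2 change 3.74, SE 0.30). It was higher in each cisplatin library than in any control. ITGB4, the laminin receptor subunit of hemidesmosomes, fell from 54.9 ± 15.3 to 2.9 ± 0.275 CPM, and the fibronectin receptor subunit ITGA5 from 664 ± 61.1 to 314 ± 15.9 CPM. Actin and myosin genes fell in 17 of 21 cases (median -0.73). The actin-sequestering peptide TMSB10 fell by 1.59. ACTA2, smooth muscle actin and a known p53 target, was the member that rose, from 28.3 ± 5.56 to 144 ± 10.7 CPM. CAV1, the coat protein of caveolae, fell from 64.5 ± 11.1 to 30.5 ± 1.83 CPM, and the intermediate filament gene VIM from 5262 ± 309.8 to 2244 ± 132 CPM.

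Genes of the undifferentiated, neural crest-like melanoma state, which is linked to drug tolerance, had 16 falls and 2 rises among 24 (median -1.03). Besides NGFR, EGFR and LOXL2, WNT5A fell from 209 ± 46.3 to 53.3 ± 4.33 CPM and the adhesion molecule L1CAM by 1.54. SNAI2 was among the members that rose (0.79, named after its value was seen). Pigment and melanosome genes had 8 rises and 2 falls among 14 (median 1.35). PMEL, the protein of melanosome fibrils, rose from 1.72 to 4.32 CPM (named after its value was seen). The pigment enzyme gene DCT had 4 counts over the controls and 30 over the cisplatin libraries, and its rise lost the call under 6 of 17 alternatives, among them without control replicate 1 or 2, vemurafenib replicate 1 or cisplatin replicate 1 or 2 (adjusted p = 0.00281 to 0.299 over them all). MLPH, which tethers melanosomes to the motor, fell from 4.37 ± 0.702 to 0.181 ± 0.0783 CPM. SOX10 was lower by 0.34 (adjusted p = 0.0226), which no longer passed when control replicate 1 or 2 or cisplatin replicate 2 or 3 was left out (adjusted p = 0.0586 to 0.0903).

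Wnt pathway genes had 17 falls and 4 rises among 31 (11 falls without control replicate 3), beside falls in 23.5% of all tested genes. The receptor FZD7 fell by 1.15, and NKD1, a feedback inhibitor and target, from 4.04 ± 0.789 to 0.497 ± 0.101 CPM. RNF43, which removes Wnt receptors, rose by 2.2 (SE 0.42, named after its value was seen). Notch genes had 11 falls and no rise among 23, the target HES1 falling from 71.5 ± 14.8 to 30.1 ± 1.88 CPM. Of the Hedgehog genes in the primary cilium list the effector GLI2 and the receptor PTCH1 fell by 2.49 and 1.97, while the list as a whole had 10 rises and 12 falls among 55. Transforming growth factor genes had 5 rises and 10 falls among 40 (6 falls without cisplatin replicate 3 and 17 without vemurafenib replicate 1). Falls in the cilium and transforming growth factor lists were near the share over all genes. LTBP3, which stores the latent factor in the matrix, rose from 767 ± 58.3 to 1473 ± 62.9 CPM. Axon guidance and synapse genes were divided, with 26 rises and 24 falls among 80. SORL1, a sorting receptor of endosomes in the membrane trafficking list, rose from 3.85 ± 1.61 to 36.2 ± 3.85 CPM.

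Apoptosis regulators did not move as a group, with 7 rises and 11 falls among 32. BCL2, an anti-apoptotic protein, fell from 4.1 ± 0.809 to 0.543 ± 0.0637 CPM and BCL2A1, its relative and a MITF target in melanoma, from 20.5 ± 3.39 to 3.8 ± 1.92 CPM. PMAIP1, a pro-apoptotic protein that is also a p53 target but not in the p53 list used here, fell by 1.44. CASP9, the initiator caspase, rose by 0.76. The largest falls outside the mitosis and replication lists were mostly of genes that act in cell division by textbook knowledge (TROAP, HMMR, ASPM, DEPDC1, ANLN, BIRC5, PIMREG and PBK). Besides these, IL1RL1, the interleukin-33 receptor, went from 7.11, 12.5 and 16.9 CPM in controls to 0, 0.0679 and 0.20 CPM after cisplatin, ZP4, a coat protein gene of the egg, fell by 6.01, and KRT81, a hair keratin, had 180 counts over the controls and 3 after cisplatin (ratio 57.7, 95% counting interval 19.4 to 282).

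Further lists had members in both directions or few calls. Heat shock and cytosolic chaperones had 3 rises and 9 falls among 26, the small chaperone HSPB1 falling from 178 ± 10.8 to 75.4 ± 5.88 CPM. Proteasome genes had 6 falls and no rise among 32, but 1 to 3 falls when control replicate 1 or 3 or any 1 of the cisplatin replicates was left out and 15 without vemurafenib replicate 1. Factors linked to quiescence had 9 rises and 10 falls among 30, the FOXO target CCNG2 falling by 1.54 (SE 0.18). Circadian clock genes had 1 rise and 5 falls among 19, the repressors PER2 and PER3 falling by 0.99 and 1.16. Ion channels had 13 rises and 10 falls among 39, with 5, 6, 8 and 4 rises without control replicate 1, control replicate 3, cisplatin replicate 2 and cisplatin replicate 3. TRPM8, a cold-sensing cation channel, rose from 3.9 ± 0.922 to 16.1 ± 1.88 CPM, and the chloride channel ANO1 fell from 69.9 ± 8.62 to 24.3 ± 9.57 CPM. Membrane trafficking genes had 12 rises and 4 falls among 40 (7 rises without control replicate 3 and 22 without vemurafenib replicate 1). RAB27B, which docks secretory vesicles, fell from 15.1 ± 1.47 to 5.61 ± 0.335 CPM.

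Cisplatin cells were compared directly with vemurafenib cells in the same fit. In this contrast 6119 genes differed (43.7%), 2905 higher in cisplatin cells (20.8%) and 3214 lower (23.0%). Without vemurafenib replicate 1 the counts were 3402 and 3755. Both drugs were also compared with the same controls, so the values of each are given side by side and no overlap of the 2 comparisons was computed. Class II genes had a median of 2.37 after cisplatin and 2.42 after vemurafenib against those controls, and 1 of 12 differed between the drugs. Lysosome genes had medians of 0.72 after cisplatin and 0.51 after vemurafenib, and differed in both directions (29 higher and 10 lower in cisplatin cells, of 73). The unfolded protein response was higher in cisplatin cells for 14 of 27 genes and lower for 0. ERK output genes were higher for 26 of 33, but their medians against controls were -0.13 after cisplatin and -1.51 after vemurafenib. Splicing factors were lower for 41 of 54 (medians -0.61 and -0.07). Interferon genes had medians of 0.78 after cisplatin and 0.66 after vemurafenib, with 20 of 60 higher and 12 lower in cisplatin cells. Hypoxia and glycolysis genes had medians of -1.13 and -1.15, with 7 of 40 higher and 9 lower.

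AREG was at 1.56, 2.18 and 3.43 CPM in vemurafenib libraries and differed between the drugs by 6.4 (SE 0.35, adjusted p = 8.88e-08). CD55 was at 42.3, 54.2 and 92.3 CPM, and differed by 5.64 (SE 0.28). TIMP1 was at 759, 467 and 560.2 CPM and PCSK1 at 4.42, 8.35 and 15.7 CPM, differing by 3.94 and 5.66. In each of these 4 genes the lowest cisplatin library was above the highest vemurafenib library. The largest differences by fitted change, which have no firm order where counts are few, were led upwards by CST1, PDYN, SLCO2B1 and CST2, which had 0, 1, 1 and 2 counts over the vemurafenib libraries. FGF14, an intracellular regulator of sodium channels, stood at 3.02 ± 0.301 in controls, 14.3 ± 1.88 after cisplatin and 0.082 ± 0.0934 CPM after vemurafenib. NGFR, the nerve growth factor receptor, differed the other way, with 0.905 ± 0.255 CPM after cisplatin and 186 ± 23.9 CPM after vemurafenib (difference -7.67, SE 0.24). The pigment enzyme gene DCT was at 0.683 ± 0.326 and 275 ± 103 CPM. TAC1 rose after cisplatin but was higher still in vemurafenib cells, at 97.1 ± 25.9 CPM (difference -2.48, SE 0.21).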

How the data were processed

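RNA-seq was compared between 3 cisplatin and 3 control libraries of A375 cells, with 3 vemurafenib libraries in the same fit. Per the labels' protocols, total RNA was primed with random hexamers, and per the submitters' processing notes the aligner was HISAT2 2.0.4 and the build hg38. The counting tool is not given in the sources used here, and no label says that strand was kept, so reads of overlapping antisense genes cannot be told apart. Estimated counts per gene were deposited by the authors and were rounded to whole numbers. The deposited TPM values served for levels per length and for alternatives, and the deposited FPKM values only for the trend of changes with gene length (Spearman's rho 0.029 across genes, which are not replicates). Of 18430 gene identifiers 18153 matched RefSeq, the source of symbols and coordinates (GRCh38.p14).

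Genes were kept by filterByExpr and tested two-sided with edgeR 4.0.16 in R 4.3.3 (TMM scaling, glmQLFit, quasi-likelihood F test, 1 fit of 9 samples, 6 residual degrees of freedom, biological coefficient of variation 0.139, Benjamini-Hochberg threshold 0.05). The standard error is the log2 change divided by the square root of F. Ratios of genes with 1 to 3 counts in a group carry exact 95% binomial intervals, which cover counting error only. On simulated counts for cisplatin against control (13580 genes) the fit called 46.3% of 67 genes simulated with a 1.5-fold change, 95.4% of 65 simulated with a 2-fold change and 100% of 65 simulated with a 4-fold change, and 8 unchanged genes. Library totals over all 9 samples were 14481020 to 16038475.

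The 54 gene lists and the rule for named genes were chosen with earlier results of these data known. The rule took the 12 largest rises and falls among changed genes with at least 50 counts per library and no overlap between groups. Genes of the proliferation, p53 and repair lists were left out of these. It also took the 10 largest TPM changes each way, up to 4 changed members per list and role and a panel of 18 genes. The last part was the 12 largest differences from vemurafenib, among genes changed in both contrasts and without overlap between the drugs. Some genes that it took are not reported here. Lists are described by counts and medians, with no set test. Alternatives were other size factors, filters, DESeq2 1.42.0, limma 3.58.1 on log2 TPM (pseudocount 1 or 0.1), a replicate block, a fit of the compared groups alone and leaving out each library. No 2 libraries of the control or cisplatin group were alike within sampling noise.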

Additional observations from a re-analysis of the deposited data

How the results depend on the processing

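Calls over all genes moved by less than 1.5 times under other size factors, filters, DESeq2, limma on TPM and without each library in turn. The ranges were 2556 to 4220 higher and 2651 to 4422 lower. The calls were 1116 and 1301 when a change of at least 1 on the log2 scale was also asked for. Of 412 tested genes that the rule or the text named 405 were called, 37 of these lost the call under at least 1 of 18 alternatives and none reversed. Outside its panel the rule took only called genes and favoured large changes, so these numbers follow from the choice. They do not carry over to all tested genes, of which 46.3% were called. With the compared groups alone in the fit the falls numbered 8 for NF-kB (main 5), 16 for TGF-beta and BMP (10), 20 for oxidative phosphorylation (8), 24 for cytosolic ribosomal proteins (6) and 15 for the proteasome (6), and the rises 21 for membrane trafficking (12). With limma on log2(TPM + 1) and on log2(TPM + 0.1) the falls were 5 and 5 for TGF-beta and BMP, 10 and 11 for cytosolic ribosomal proteins and 3 and 3 for the circadian clock (5).

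Without 1 library at a time the ranges were 5 to 8 rises for immune ligands, 4 to 8 falls for NF-kB, 6 to 17 for TGF-beta and BMP, 11 to 20 for Wnt, 4 to 21 for oxidative phosphorylation, 3 to 26 for cytosolic ribosomal proteins, 1 to 15 for the proteasome, 13 to 25 for the core spliceosome and 10 to 21 for purine, pyrimidine and folate genes, and 4 to 14 rises for ion channels (main 13) and 7 to 22 for membrane trafficking. Leaving out vemurafenib replicate 1 gave the high end of the immune ligand, NF-kB, TGF-beta, oxidative phosphorylation, ribosomal, proteasome and trafficking ranges. Of the other list counts recomputed, in 1 direction per list, only that of TNF superfamily rises (4, up to 8) moved by over 1.5 times under any setting. The cause of these shifts was not tested.

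Same-numbered cisplatin and control libraries deviated together with correlations of 0.21, 0.081 and 0.125. Each cisplatin library correlated best with its own number among controls, a hint from the data and not from the labels. Among vemurafenib libraries this held for cisplatin replicate 1 only (0.166). Cisplatin replicate 2 correlated at 0.013 with its own number and 0.015 with vemurafenib replicate 1, and cisplatin replicate 3 at 0.102 and, with vemurafenib replicate 2, 0.142. With replicate number as a block 3369 genes were higher and 3488 lower, and the pairing moved 1 list by over 1.5 times, cytosolic ribosomal proteins (17 falls). STING1 passed under the block (adjusted p = 0.0334). Depth limits mainly genes near the filter: 27 replication-dependent histone genes in the table were not tested.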

Other observations

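Gene families looked at after the values were seen gave further groups, described here by counts alone. The ABCA family of lipid transporters had 10 rises and no fall among 11 tested genes (median log2 change 1.63). The neighbouring genes ABCA6, ABCA8 and ABCA10 of chromosome 17 were at 1.46 ± 0.393, 0.953 ± 0.423 and 6.8 ± 0.719 CPM in controls and 10.9 ± 1.47, 12.6 ± 1.1 and 21.1 ± 1.92 CPM after cisplatin. Clustered protocadherins, adhesion molecules that give neurons an identity and lie side by side on chromosome 5, rose in 13 of 15 cases for the beta cluster (median 1.00), 10 of 15 for the alpha cluster (0.75) and 7 of 21 for the gamma cluster (0.44), with 1 fall in the latter. Against the same controls the beta cluster's median after vemurafenib was 1.40. Transcripts of the alpha and of the gamma cluster share their last exons, so reads could be split between members. Zinc finger genes named ZNF had 113 rises and 61 falls among 451 (median 0.13).

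Both tested metallothioneins, small proteins that bind metals, were lower after cisplatin. MT2A was at 629.7, 656 and 668 CPM in control libraries and 169, 152 and 102 CPM in cisplatin libraries, without overlap (log2 change -2.21, SE 0.18).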
